A study of Mus musculus with 6 samples.

Results

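The receptors through which contractile agonists act on smooth muscle were examined as 9 genes: Oxtr, Avpr1a, Adra1a, Adra1b, Chrm2, Chrm3, Ednra, Ednrb and Agtr1a. Accessible regions were assigned to them by position alone, as every region of the merged WT and Pbrm1 cKO peak lists that overlapped a gene body or the 10 kb on either side of it in the GRCm38 (mm10) mouse genome. This gave 30 of the 66679 merged regions. They lay at 8 of the 9 genes, and Chrm2 had none.

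Hormones, peptides and nerve transmitters make smooth muscle contract by binding receptors that cross the cell membrane and couple to heterotrimeric G proteins. The receptors for oxytocin, vasopressin, noradrenaline (alpha-1), acetylcholine (M3), endothelin and angiotensin signal mainly through Gq and phospholipase C, which releases calcium from internal stores and activates myosin light chain kinase, whereas the M2 receptor couples to Gi. In the oviduct the muscle layer drives the movements that carry the embryo toward the uterus, and adrenergic nerves and circulating hormones act on it.

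ATAC-seq, in which Tn5 transposase inserts adapters into open DNA, was made from 6 libraries of primary oviductal muscle cells from mice on day 2 of pregnancy, 3 from WT and 3 from Pbrm1 cKO females aged 8 to 12 weeks that had been mated with stud males. Pbrm1 encodes a chromatin-binding subunit of the PBAF form of the SWI/SNF remodelling complex. The cKO mice were described by the study as Pbrm1 fl/fl mice carrying PR-IRES-cre, so that recombination was limited to cells that express or had expressed the progesterone receptor, and their controls, labelled WT, as Pbrm1 fl/fl. Nothing in the labels gives the fraction of these muscle cells that had recombined, and whether each library came from 1 mouse or from several was not stated, so p-values measure the spread between these libraries. The cells were released by trypsin, collagenase and dispase, passed through a filter and kept in culture dishes for a few hours before the nuclei were taken.

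Each library came as a relaxed list of up to 300000 peak-caller entries, and each genotype as 1 list of reproducible regions, with no read counts. Every merged region was therefore ranked within a library by the strongest entry over it, rank 1 being the strongest of 66679, and the rank score was log2(66679/rank), so that 1 unit is a 2-fold change of rank. The read depth is unknown. Many weak entries share a p-value, so low ranks are often tied and the same rank recurs. The number of tags under a summit, which is a measure of the evidence behind a rank but not a level that can be compared between libraries, was recovered from the listed fold and p-value. The distinct listed intervals ran from 201228 to 241237 per library, the highest in WT 3, which also had the lowest median fold, 3.61 against 4.43 to 4.87 in the other libraries. All 7 smooth muscle marker genes (Acta2, Myh11, Cnn1, Tagln, Des, Lmod1 and Smtn) had a region within 1 kb of a start. Of the other lists, 1 of 7 epithelial genes had one (Foxj1, median rank 4021), as did 4 of 5 endothelial, 2 of 5 blood cell, 3 of 5 fibroblast, 3 of 4 pericyte and 3 of 5 Schwann cell and neuron genes. The share of all protein-coding genes with a region within 1 kb of a start is not given here, so these counts have no background.

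The 4 sequences below were taken from the RefSeq genome of GRCm38 at regions that were the strongest of their gene, and each avoids annotated exons. They are given on the plus strand, with capitals for matches to short motifs: AP-1 (TGANTCA), the steroid receptor half-site (TGTTCT), the motif of GATA factors (AGATAA) and the core of the CTCF motif (12 letters, 5 of them free). A CArG box, the motif of serum response factor, and the TEAD motif (GGAATG) were also searched. Both strands were read, and the CTCF core was added after the sequences had been seen.
Chrm3 intron, +478.2 kb, chr13:9882427-9882626: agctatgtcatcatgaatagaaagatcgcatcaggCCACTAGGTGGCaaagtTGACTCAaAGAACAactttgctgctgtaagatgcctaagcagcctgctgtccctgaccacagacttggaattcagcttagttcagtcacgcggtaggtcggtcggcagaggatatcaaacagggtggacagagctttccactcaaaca
Adra1b, +134.0 kb, downstream, chr11:43766949-43767148: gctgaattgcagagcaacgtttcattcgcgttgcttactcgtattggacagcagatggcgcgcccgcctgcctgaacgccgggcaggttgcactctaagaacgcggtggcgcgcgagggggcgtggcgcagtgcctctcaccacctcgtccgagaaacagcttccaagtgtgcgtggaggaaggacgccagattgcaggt
Oxtr, −0.9 kb, start, chr6:112491036-112491201: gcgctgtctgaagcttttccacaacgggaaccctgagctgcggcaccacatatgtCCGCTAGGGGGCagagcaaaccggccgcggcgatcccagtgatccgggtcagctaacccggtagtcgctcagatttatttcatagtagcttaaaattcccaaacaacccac
Avpr1a, +5.3 kb, past the last exon, chr10:122453681-122453880: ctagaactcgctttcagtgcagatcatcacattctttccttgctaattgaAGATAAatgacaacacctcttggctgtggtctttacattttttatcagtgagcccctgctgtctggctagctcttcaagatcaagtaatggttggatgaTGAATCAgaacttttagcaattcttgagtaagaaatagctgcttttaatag

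The strongest of all 30 regions, in Chrm3, held a CTCF core, an AP-1 match and a steroid receptor half-site between bases 36 and 66 of the printed window. The Oxtr sequence held a CTCF core 72 bp from the summit of its region. The Avpr1a sequence had an AP-1 and a GATA match, and the Adra1b sequence had none of the 6 motifs.

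In windows of 200 bp on the strongest summit, 15 of the 30 receptor regions (50.0%) held an AP-1 match, against 33.9% of all 66679 regions. The share differed by place. Of the 8 receptor regions within 1 kb of the outer start of a protein-coding gene none had the match, and of the other 22, 15 had it. The shares over all regions were 6.69% and 41.5% in turn. CTCF cores were in 5 of 30 (16.7%, against 13.2%), half-sites in 3 (10.0%, against 13.6%), TEAD in 4 (13.3%, against 15.4%) and GATA in 3 (10.0%, against 8.25%). None held a CArG box, which 1.15% of all regions did. A match is a run of letters and says nothing of whether a factor was bound.

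**Figure D1:**
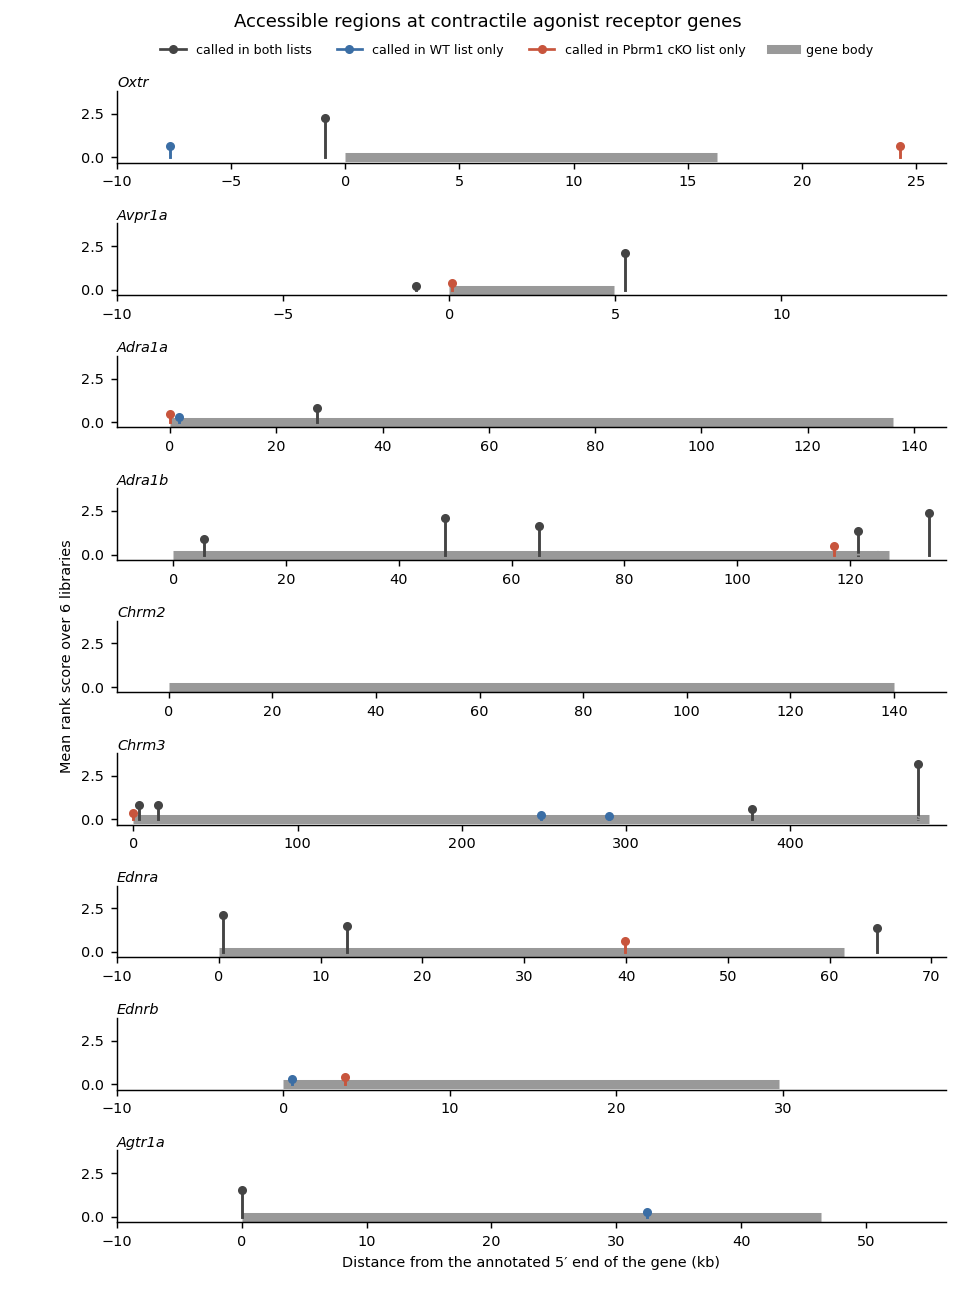
Position of the 30 accessible regions along each receptor gene, in kb from its annotated 5′ end (x axis, a different scale for each gene), with the mean rank score over 6 libraries as height (y axis) and colour for the peak list that called the region. Chrm3 carries the tallest region, at +478.2 kb near its far end, Adra1b carries 6 regions and Chrm2 none.

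Of the 30 regions, 17 (56.7%) were called in both genotypes, 6 (20%) in the WT list alone and 7 (23.3%) in the cKO list alone. Over all merged regions these shares were 69.2%, 13.4% and 17.4%. Being on 1 genotype's list did not mean absence from the other libraries, since 28 of the 30 (93.3%) had an entry in all 6, as did 93.5% of all regions. The exceptions, Avpr1a −1.0 kb and Ednrb +0.5 kb, lacked one in WT 3. The receptor regions were of lower rank than most, with a median rank of 38940 against 33342.

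The density of regions differed widely among the genes. Over all 21938 protein-coding genes the median was 4.46 regions per 100 kb of gene body plus flanks. Avpr1a, a short gene, had 12.0 per 100 kb (more than 86.2% of genes) and Oxtr 8.27, followed by Ednra with 4.91, Adra1b with 4.09, Ednrb with 4.02, Agtr1a with 3.01, Adra1a with 1.92 and Chrm3, the longest, with 1.39. No region at all was found for 22.2% of protein-coding genes, but for only 66 of the 1612 (4.09%) whose window was at least as long as that of Chrm2. In bulk libraries a region open in fewer cells and a region less open in every cell cannot be told apart.

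No receptor region changed between the genotypes past the adjusted threshold of 0.05 (limma on rank scores, Benjamini-Hochberg over all regions), where 45 of 66679 regions did (0.0675%, made up of 0.039% higher and 0.0285% lower in cKO). The smallest adjusted p among them was 0.167. At an unadjusted p under 0.05 there were 3 of 30, 1 higher (Chrm3 −0.1 kb) and 2 lower (Agtr1a +0.0 kb and Adra1a +1.6 kb), against 15.9% of all regions, 7.51% higher and 8.37% lower. On normal scores of the ranks 0 of 30 passed, against 2.33%. The differences, cKO minus WT, ran from −0.75 to 0.55 with a median of −0.06, 13 above 0 and 17 below, beside a median of 0.00055 over all regions. The interquartile range of the receptor differences lay between −0.23 and 0.28, and that of all regions between −0.27 and 0.26. The rank scores of the 3 WT and 3 cKO libraries did not overlap at 5 of the 30 regions, 4 of them lower and 1 higher in the cKO libraries, where 21.5% of all regions did not overlap (10.9% lower, 10.6% higher).

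**Figure D2:**
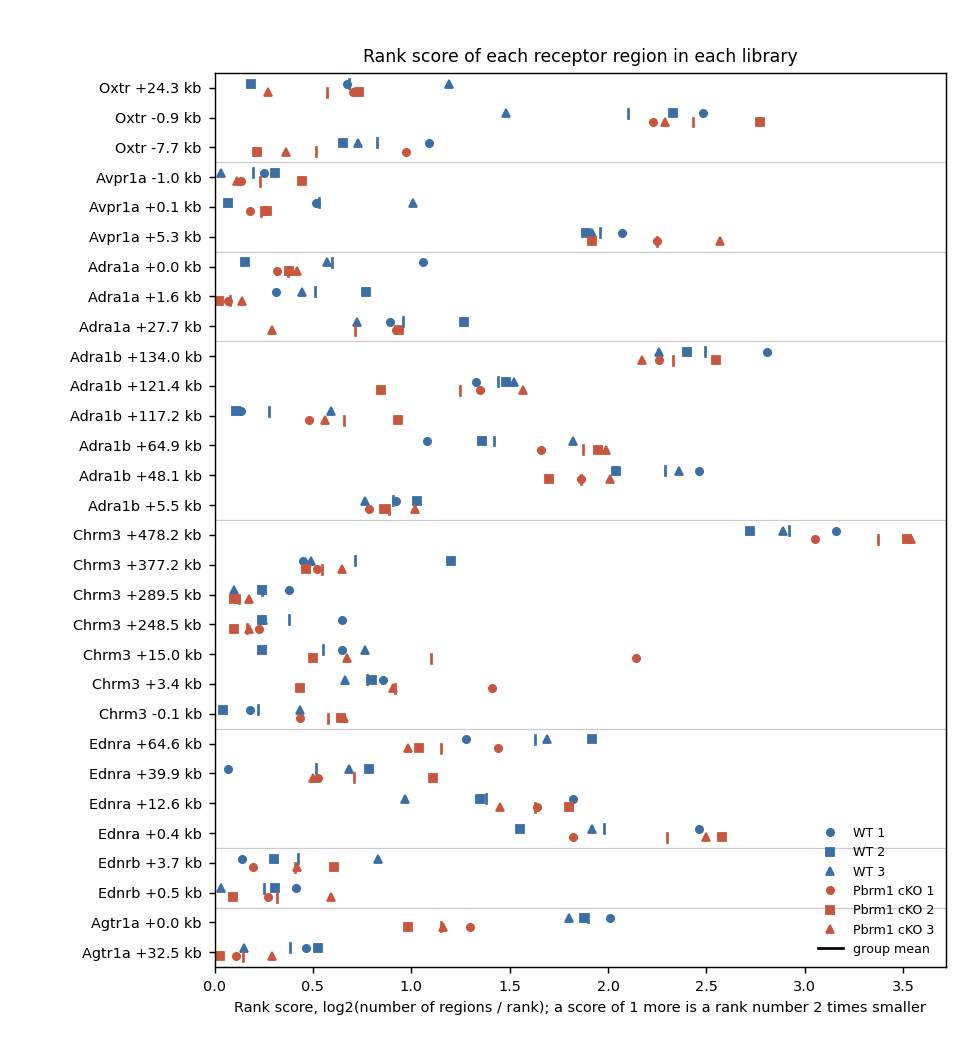
Rank score, log2(66679/rank), of the 30 receptor regions (y axis, named by gene and distance of the midpoint from the 5′ end) in each of 3 WT (blue) and 3 Pbrm1 cKO (red) libraries, with marker shape for the replicate number and short lines for group means. At Agtr1a +0.0 kb all 3 WT libraries lie to the right of all 3 cKO libraries, while at Oxtr −0.9 kb and Ednra +0.4 kb the colours mix.

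Oxtr, the oxytocin receptor gene (ENSMUSG00000049112, chr6:112473683-112489943, minus strand), had 3 regions. The strongest (chr6:112490574-112491201, −0.9 kb) was called in both genotypes and lay before the GENCODE start (nearest base at −631 bp), over the first exon of a longer RefSeq model that begins at 112491035. Its ranks were 11963, 13270 and 23882 in WT 1 to 3 and 14198, 9750 and 13619 in cKO 1 to 3. Only WT 3 stood away from the other libraries, and the groups overlapped. The rank score was 2.10 ± 0.538 in WT and 2.43 ± 0.297 in cKO (SD, n = 3 each), a difference of 0.34 with a 95% interval of −0.42 to 1.09 and a limma adjusted p of 0.701. It rested on 23 to 58 tags per library. Without WT 3 the difference was 0.03.

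The other Oxtr regions were weak. One upstream at −7.7 kb was on the WT list alone, with ranks of 31376, 42394 and 40160 in WT and 33948, 57391 and 51795 in cKO, which overlapped. The region at +24.3 kb was on the cKO list alone and lay in the neighbouring gene Cav3, which encodes the muscle caveolin. Its ranks, 29214 to 58672 in WT and 40034 to 55170 in cKO, overlapped.

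Avpr1a, the V1a vasopressin receptor gene (ENSMUSG00000020123, chr10:122448499-122453452, plus strand), was strongest at its far end and not at its start. The region at +5.3 kb (chr10:122453417-122454139), called in both genotypes, began in the last exon and lay within 1 kb of the start of the predicted gene Gm48878. Its ranks were 15901, 18014 and 17628 in WT and 14022, 17566 and 11266 in cKO. The cKO ranks were on the whole slightly better but overlapped, and the difference was 0.29 (interval −0.40 to 0.98, limma adjusted p 0.723). At the start itself, the region at +0.1 kb had ranks of 46600, 63536 and 33023 in WT and 58898, 55492 and 55798 in cKO, although it was on the cKO list alone. A region at −1.0 kb was weaker still, at 53898 and 55898 in WT 2 and WT 1 with no entry in WT 3, and 49026 to 61706 in cKO.

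The alpha-1 adrenergic receptors receive noradrenaline from sympathetic nerves, and the 2 genes differed in accessibility. Adra1a (ENSMUSG00000045875, chr14:66635251-66771168, plus strand) had 3 weak regions and Adra1b (ENSMUSG00000050541, chr11:43774606-43901210, minus strand) 6, of which 5 were called in both genotypes. The best rank score per library averaged 0.887 ± 0.291 for Adra1a and 2.43 ± 0.229 for Adra1b (SD over 6 libraries), with no overlap. Both are of similar length, 136.0 and 127.0 kb.

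Within Adra1a the region at +1.6 kb (chr14:66636772-66636964) had the smallest p of all receptor regions. It was on the WT list alone, in a GENCODE intron that RefSeq models include as an exon. Its ranks were 53612, 39162 and 48980 in WT and 63516, 65635 and 60609 in cKO. Every cKO library ranked it below every WT library, but near the bottom of the list, with 9 to 20 tags in WT and 8 to 11 in cKO. WT 3, with 9 tags, had fewer than cKO 1 and cKO 3, with 11 each, and was set above them by rank alone. The difference was −0.43 (SE 0.15, interval −0.74 to −0.12), and the limma adjusted p of 0.167 did not pass the threshold. The gene lies 35.5 Mb from Pbrm1 on chromosome 14. Within 10 Mb on either side of the strongest Adra1a region, 21.0% of 708 regions had an unadjusted p under 0.05, against 15.9% of all. The same share was 20.8% of 173 regions around Ednrb, which lies farther from Pbrm1 on that chromosome. Around the members on other chromosomes it was 13.3% to 16.3%. The part of linkage to Pbrm1 in the Adra1a values was not tested.

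The Adra1a start (+0.0 kb) had ranks of 31944, 59974 and 44793 in WT and 53424, 51264 and 49924 in cKO. The 3 WT libraries spanned the cKO values, and the region was on the cKO list alone. Its strongest region, in an intron at +27.7 kb, was called in both genotypes with ranks of 35938, 27734 and 40387 in WT and 35218, 34888 and 54406 in cKO (difference −0.24, limma adjusted p 0.734).

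Adra1b had no region within 1 kb of its outer start. The nearest lay in the intron at +5.5 kb, with ranks near 35923 (the median) and a difference of −0.02. An inner region at +64.9 kb (chr11:43835911-43836718) covered the start of a shorter annotated transcript. Its ranks were 31632, 25919 and 18936 in WT and 21044, 17229 and 16752 in cKO. Of the cKO libraries, 2 ranked it above every WT library and cKO 1 did not, for a difference of 0.45 (interval −0.24 to 1.14, limma adjusted p 0.535).

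The strongest Adra1b region lay past the gene's end, at +134.0 kb (chr11:43766887-43767466), with ranks of 9498, 12656 and 13886 in WT and 13877, 11360 and 14822 in cKO, and 26 to 53 tags. An intronic region at +48.1 kb ranked 12106, 16210 and 12992 in WT and 18352, 20584 and 16518 in cKO. All 3 cKO libraries were below all 3 WT libraries there, with cKO 3 and WT 2 close together (−0.43, interval −1.11 to 0.25, limma adjusted p 0.552). WT 3 had 25 tags, against 37, 31 and 35 in cKO, and was above them by rank alone. The region at +117.2 kb, on the cKO list alone, ranked 60680, 61854 and 44304 in WT and 47754, 34960 and 45234 in cKO (0.38, limma adjusted p 0.369), with 1 WT library above 2 of the cKO libraries. The last intronic region, at +121.4 kb, ranked 22456 to 37157 over the 6 libraries, with a difference of −0.19.

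The muscarinic receptors of smooth muscle are M2, encoded by Chrm2, and M3, encoded by Chrm3, which drives the contraction that acetylcholine causes. By their best region they stood at opposite ends of the 9 genes. By regions per 100 kb they did not, since Chrm3, at 1.39, was the lowest of the 8 genes with any region. Chrm3 (ENSMUSG00000046159, chr13:9875486-10360847, minus strand) held the best-ranked receptor region in each of the 6 libraries, and Chrm2 (ENSMUSG00000045613, chr6:36388084-36528414, plus strand) had no merged region.

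The leading Chrm3 region, at +478.2 kb (chr13:9882318-9882988), lay in an intron near the far end of this long gene, upstream of the start of a short annotated transcript (nearest base at −3320 bp), and is the first sequence printed above. Its ranks were 7485, 10134 and 8982 in WT and 8032, 5820 and 5750 in cKO. WT 1 ranked it above cKO 1, and cKO 2 and cKO 3 ranked it above all WT libraries. It carried 59, 45 and 30 tags in WT and 63, 66 and 69 in cKO. The difference of 0.45 (2.92 ± 0.22 against 3.37 ± 0.273, SD, n = 3 each) had an interval of −0.31 to 1.21 and a limma adjusted p of 0.587.

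The outer start of Chrm3 (−0.1 kb, chr13:10360779-10361193) was the 1 receptor region at which every cKO library ranked above every WT library. The ranks were 58814, 64670 and 49418 in WT and 49290, 42738 and 42272 in cKO. The nearest pair, WT 3 and cKO 1, were almost level. The rank score was 0.219 ± 0.197 in WT and 0.578 ± 0.124 in cKO (SD, n = 3 each), a difference of 0.36 (SE 0.17, interval 0.00 to 0.72), and the limma adjusted p of 0.311 did not pass.

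Of the other 5 Chrm3 regions, 2 at +289.5 and +248.5 kb were on the WT list alone and had low ranks in every library. At +248.5 kb the WT libraries (42542, 56462 and 56250) were all above the cKO libraries (56996, 62280 and 59121), for a difference of −0.21 and a limma adjusted p of 0.498. WT 3 had 7 tags there, against 14, 10 and 11 in cKO, and was above them by rank alone. On the log2 rank score the region at +15 kb had the highest difference of all 30, 0.55 (limma adjusted p 0.485). Its ranks were 42542, 56462 and 39244 in WT and 15084, 47218 and 41884 in cKO. The difference rested on cKO 1, without which it was 0.03. The regions at +377.2 kb and at +3.4 kb, the latter at the start of Gm26861, were called in both genotypes, with ranks of 29088 to 48844 and 25052 to 49392 over the 6 libraries and differences of −0.17 and 0.14.

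For Chrm2 only the relaxed lists gave any entries, 6, 3 and 4 in WT and 3, 8 and 6 in cKO. They fell at 10 places, 6 of them seen in 1 library only, with 4 to 18 tags and a median of 7. One place was listed in all 6 libraries and covered the 5′ end of the gene (chr6:36387790-36389140). Its best rank among the intervals of a library was 51407, in WT 1.

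The endothelin receptors are ETA, encoded by Ednra, the main contractile type of smooth muscle, and ETB, encoded by Ednrb. Ednra (ENSMUSG00000031616, chr8:77663031-77724464, minus strand) had an accessible start and Ednrb (ENSMUSG00000022122, chr14:103814625-103844402, minus strand) 2 weak regions. Over the 6 libraries the best rank score was 2.20 ± 0.348 for Ednra and 0.504 ± 0.211 for Ednrb (SD).

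At the Ednra start (+0.4 kb, chr8:77723498-77724663) the ranks were 12111, 22720 and 17575 in WT and 18852, 11142 and 11752 in cKO, with 25 to 55 tags. The best and the worst library were cKO 2 and WT 2, but WT 1 ranked above cKO 1, and the difference was 0.32 (interval −0.43 to 1.08, limma adjusted p 0.712). Another annotated gene, 4933431K23Rik, also starts within 1 kb of this region, and its body covers all 4 Ednra regions. Downstream at +64.6 kb, near other starts of that gene and of Gm45714, the ranks were 27466, 17659 and 20659 in WT and 24604, 32488 and 33740 in cKO, a difference of −0.48 (limma adjusted p 0.501) with cKO 1 within the WT range. The intronic regions at +12.6 and +39.9 kb had differences of 0.25 and 0.20, with ranks of 18901 to 34127 and 30948 to 63488 over the 6 libraries.

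The Ednrb regions were at +0.5 kb, upstream of a shorter transcript and on the WT list alone, and at +3.7 kb, on the cKO list alone. The first ranked 49986 and 53824 in WT 1 and WT 2, had no entry in WT 3, and ranked 55188, 62574 and 44313 in cKO. The second ranked 60600, 54013 and 37516 in WT and 58124, 43725 and 49796 in cKO. In both the groups overlapped throughout, with differences of 0.07 and −0.01. The gene lies 72.7 Mb from Pbrm1 on chromosome 14.

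Agtr1a encodes the AT1a receptor, which answers angiotensin II (ENSMUSG00000049115, chr13:30336441-30382867, plus strand). Its start region (+0.0 kb, chr13:30336005-30336881) had the largest difference of the 30 on the log2 rank score. The order changed with the scale. On normal scores Adra1a +1.6 kb had −1.15 and Adra1b +117.2 kb 0.709, against −0.498 for the best score of Agtr1a. The Agtr1a start region was called in both genotypes. It ranked 16518, 18148 and 19178 in WT and 27080, 33708 and 29876 in cKO. The WT libraries lay close together, the cKO libraries lay close together, and no library of one group reached the other. The rank score was 1.9 ± 0.109 in WT and 1.15 ± 0.158 in cKO (SD, n = 3 each), a difference of −0.75 with an SE of 0.31 and an interval of −1.40 to −0.10, but the limma adjusted p of 0.250 did not pass. The tags were 42, 34 and 21 in WT and 31, 22 and 25 in cKO, and the listed folds 12.4, 12.5 and 8.56 against 11.8, 9.64 and 10.1, so that WT 3 had fewer tags and a lower fold than the cKO libraries and was set above them by rank alone. With any 1 library left out the difference stayed between −0.82 and −0.67. The other region, in an intron at +32.5 kb on the WT list alone, had a difference of −0.24 (limma adjusted p 0.429).

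**Figure D3:**
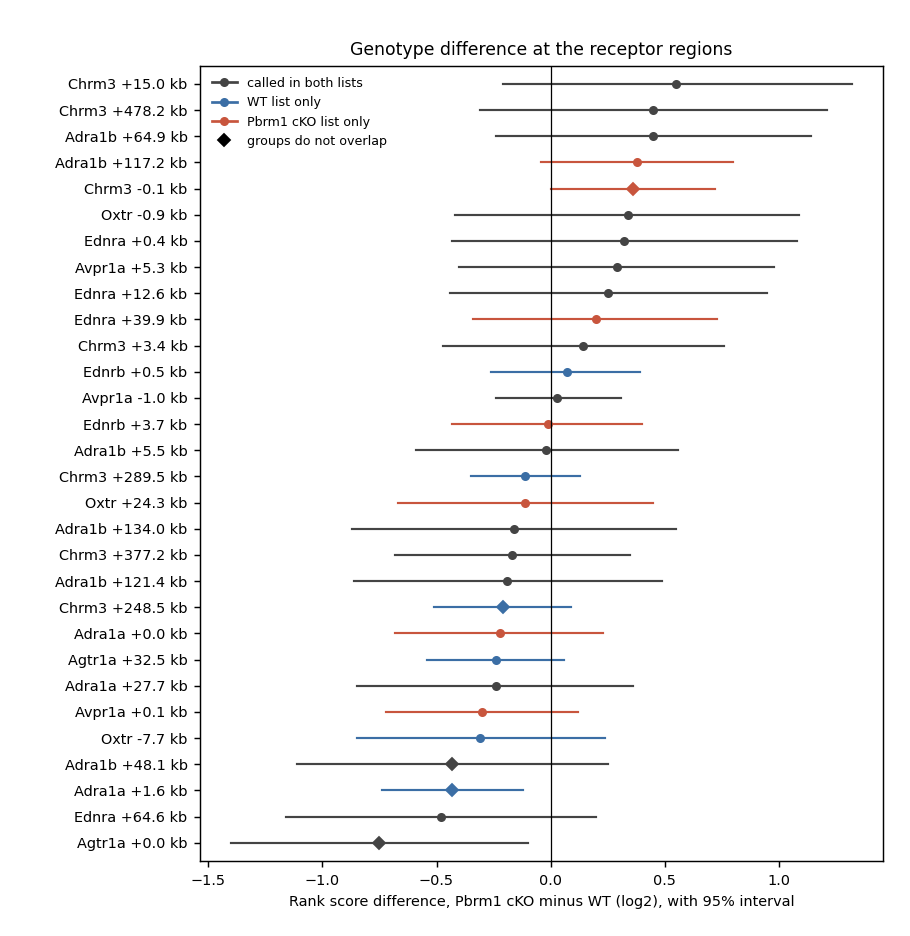
Difference of the mean rank score between Pbrm1 cKO and WT (x axis, log2 units, 3 libraries each) for the 30 receptor regions in order, with 95% intervals from limma, colour for the calling list and diamonds where no library of one group reached the other. Agtr1a +0.0 kb is lowest at −0.75 and Chrm3 +15 kb highest at 0.55, and every interval but those of Agtr1a +0.0 kb, Adra1a +1.6 kb and Chrm3 −0.1 kb reaches 0.

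Ordered by the best rank score of a gene in each library (mean ± SD over 6), Chrm3 was first at 3.15 ± 0.331, then Adra1b 2.43 ± 0.229, Oxtr 2.26 ± 0.43, Ednra 2.20 ± 0.348, Avpr1a 2.10 ± 0.264, Agtr1a 1.52 ± 0.428, Adra1a 0.887 ± 0.291 and Ednrb 0.504 ± 0.211. The best score is the highest over the regions of a gene, and the order was not corrected for their number. Chrm3 had 7 regions and Adra1b 6, against 2 each for Agtr1a and Ednrb. Chrm3 was above Adra1b in 6 of 6 libraries and Avpr1a above Agtr1a in 6 of 6, as was Agtr1a above Adra1a. In WT, Avpr1a and Agtr1a were almost level, at 2.07, 1.89 and 1.92 against 2.01, 1.88 and 1.8. In cKO they were apart, at 2.25, 1.92 and 2.57 against 1.3, 0.98 and 1.16. Adra1b, Oxtr, Ednra and Avpr1a were not separated by more than their spread: each was above the next in only 4, 4 and 3 libraries. Adra1a was above Ednrb in 4. In the exact two-sided permutation test of the genotypes, which with 3 libraries a group cannot go below 0.1, Agtr1a gave p = 0.1 and the other 7 genes 0.2 to 0.9, none of them adjusted.

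A count of listed intervals, which does not use the merged regions, gave 112, 98 and 110 over the 9 genes in WT and 104, 110 and 97 in cKO. These overlapped, with means of 107.0 ± 7.57 and 104.0 ± 6.51 (SD, n = 3 each, exact permutation p = 0.6). Adra1a was the 1 gene of 9 (11.1%) whose groups did not overlap, against 7.73% of the 20132 protein-coding genes with an interval, a share near that background. It had 17, 17 and 16 intervals in WT and 13, 15 and 13 in cKO (−3.0, not adjusted, exact permutation p = 0.1). With intervals of q 0.05 or less that difference was −1.0. Chrm3, the longest gene, had 24 to 32 per library and Agtr1a 3 to 5, with a mean of 4.0 in both groups. The Agtr1a difference was −0.667 among the 100000 best-ranked intervals and −0.5 to 0.5 with 1 library left out.

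**Figure D4:**
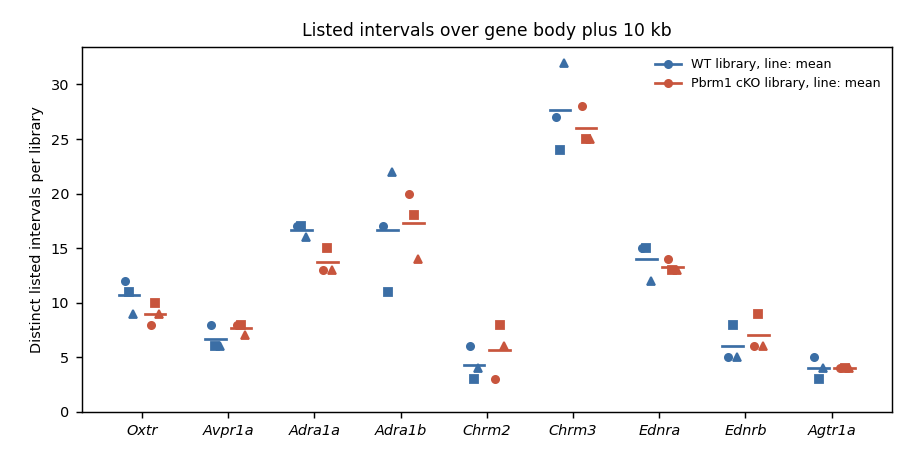
Number of distinct listed intervals over the gene body plus 10 kb (y axis) for each receptor gene in 3 WT (blue) and 3 Pbrm1 cKO (red) libraries, with circles, squares and triangles for replicates 1, 2 and 3 and lines for group means. Adra1a, at 16 to 17 in WT and 13 to 15 in cKO, is the 1 gene of 9 without overlap, against 7.73% of protein-coding genes.

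Other genes of the pathway, 57 in 4 lists, were read at their promoters, and 33 of them had 54 regions within 1 kb of a start. The count of genes, here and for each list below, is again without the share over all protein-coding genes. None of the 54 regions passed the adjusted threshold, 3 (5.56%) had an unadjusted p under 0.05, against 15.9% of all regions, and 10 (18.5%) did not overlap, against 21.5%. The median difference was 0.02, with 24 of 54 below 0.

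Ligands and the enzymes that make them had a promoter region at 3 of 10 genes: Edn1 and Edn2, which encode endothelins, and Ece1, which encodes the enzyme that cuts them to their active form. Their 5 regions had a median of −0.47, itself the value of an Ece1 region. The Ece1 regions had −0.64, −0.47 and −0.38, that of Edn1 −0.52 and that of Edn2 0.01. The Ece1 region with the smallest p ranked 13410, 10436 and 10262 in WT and 14044, 16931 and 22804 in cKO, which did not overlap (−0.64, limma adjusted p 0.369). Oxt, Avp, Agt, Chat and Dbh, which encode or make the ligands of most of these receptors in other tissues, had no promoter region. Of 20 related receptors 6 had one, 11 regions in all with a median of 0.12. Adra1d, the third alpha-1 receptor, had a start region stronger than any of Adra1a, at 15631, 12838 and 12380 in WT and 10624, 9036 and 8476 in cKO. All cKO libraries were above all WT libraries (0.54, limma adjusted p 0.455).

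A region within 1 kb of some annotated start was present at 8 of the 9 receptor genes. Of the signal transducers, 14 of 15 genes for G proteins, phospholipases and calcium release had a promoter region. Neither count has a share over all protein-coding genes beside it, so neither is read as a trait of these genes. Gnai3, a Gi alpha subunit, ranked 566, 1914 and 1880 in WT and 7972, 2286 and 6592 in cKO, lower in all 3 (−1.96, SE 0.59, limma adjusted p 0.133). There cKO 2 lay close to WT 2. Gnai2, another Gi alpha subunit, had the next smallest p of the list and went the other way (1.26, limma adjusted p 0.348). It ranked 839, 4424 and 4754 in WT and 1138, 1252 and 898 in cKO, which overlapped. The median of the list was 0.02.

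Among 12 genes that switch receptors off, 10 had a promoter region, with a median of 0.06. Rgs4, which speeds the shut-off of Gq and Gi, had the smallest p of the 4 lists. Its region (chr1:169747450-169747846) was on the WT list alone and ranked 28486, 25594 and 37846 in WT and 63964, 58230 and 66371 in cKO, well apart. The difference of −1.05 (SE 0.23) had a limma adjusted p of 0.0833, and on normal scores of the ranks it passed, at 0.0127. That call was lost without WT 1 (adjusted p 0.0651), WT 2 (0.054), cKO 1 (0.064) or cKO 3 (0.0513), and kept without WT 3 or cKO 2. In the 20 Mb of chromosome 1 around it, 20% of 704 regions had an unadjusted p under 0.05 and 5.54% passed on normal scores, against 2.33% of all, and the part of that stretch in the Rgs4 value was not tested. At Rgs3 a region called in both genotypes ranked higher in every cKO library than in any WT library (0.9, limma adjusted p 0.295). The differences of the other Rgs3 regions ran from −0.4 to 0.21.

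**Figure D5:**
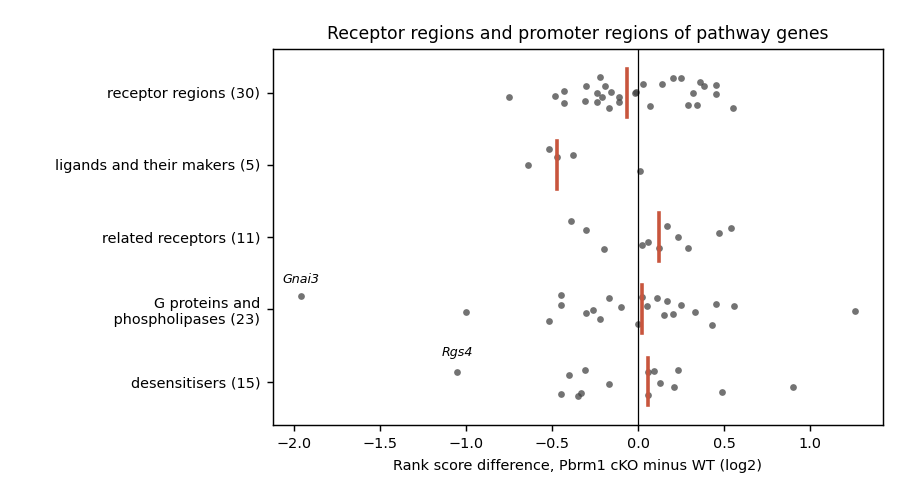
Difference of the mean rank score between Pbrm1 cKO and WT (x axis, log2 units) for the 30 receptor regions and the promoter regions of 4 lists of pathway genes (number of regions in brackets), 1 point a region, with red bars at the medians. All medians but that of the ligand list, −0.47 and itself an Ece1 value, lie between −0.06 and 0.12. Gnai3 and Rgs4 stand at −1.96 and −1.05, and the highest point, at 1.26 and without a label, is Gnai2.

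No marker region passed the adjusted threshold. The 11 smooth muscle promoter regions had a median difference of −0.18, 9 below 0, with a smallest limma adjusted p of 0.409, and the median of the best ranks per gene was 18920 to 27942 in WT libraries and 21986 to 26674 in cKO. The 7 fibroblast regions were all above 0 with a median of 0.29 (smallest limma adjusted p 0.196, at Pdgfra), and their median best rank was 25864 to 41179 in WT and 28624 to 34512 in cKO. Groups did not overlap at the Pdgfra regions with 0.46 and 0.51 and at a Dcn region with 0.36, and overlapped at the others. Over all regions 10.6% did not overlap and were higher in cKO. Of the 7, 2 had an unadjusted limma p under 0.05, against 7.51% of all regions in that direction. The endothelial, blood cell and Schwann cell and neuron lists had medians of −0.17, −0.19 and 0.03, and Foxj1 a difference of 0.25. The 3 pericyte regions were all below 0 with a median of −0.37 (smallest limma adjusted p 0.263, at Kcnj8), and their median best rank was 22922 to 29440 in WT and 36188 to 44451 in cKO. Of the 3, only Kcnj8 had groups without overlap, and it alone had an unadjusted limma p under 0.05. Most of those median ranks were its own. Lum and Col3a1 of the fibroblast list and Rgs5 of the pericyte list had no promoter region. The part of cell composition in the Agtr1a, Adra1a and Rgs4 values was not tested.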

How the data were processed

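The authors ran the ENCODE ATAC-seq pipeline 1.9.0 (cutadapt, Bowtie2, MACS2) on GRCm38.p5 and deposited peak lists: a relaxed list per library and, per genotype, a conservative list at an IDR of 0.05. The deposited columns hold a score, a fold (ratio) over local background and the −log10 of p and q. No read counts were among the files used here, so the read-count test of the study was not run. Both IDR lists were merged into 66679 regions. Regions were ranked per library by the best −log10 p, regions without an entry sharing the average of the lowest ranks. log2(66679/rank) was fitted with limma 3.58.1 in R 4.3.3 (trend, genotype only, all 6 libraries). The fit was also run on simulated data with the same noise in every region and no ties. These ranks have ties, so nothing is concluded from that run. Tags at summits were solved from fold and p (178 values, largest misfit 1.37e-05 in log10 p). Genes came from GENCODE vM21. Every member was described, and of each pathway list the promoter region with the smallest p. Edn1, Edn2, Gnai2, Rgs3, Foxj1, Pdgfra, Dcn and Kcnj8 were named after their values were seen. Members, lists and motifs were chosen with earlier results of these data known. 1 pathway list, a search for promoter regions alike in pattern and 1 sequence are not reported here. Alternatives are given in the closing section.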

Additional observations from a re-analysis of the deposited data

How the results depend on the processing

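Of 760 values under alternative processing, 49 differences changed sign, 7 counts or medians moved by more than 1.5 times or 1 SD, and 704 moved less or stayed on their side of the threshold, among them 1 median that turned above 0 and 5 interval differences that went to or from 0. The exact permutation tests of interval counts and best scores cannot reach 0.05, so there only a change of sign could be seen. Their place among the 704 therefore says little of stability. No receptor region passed under any alternative, with the lowest adjusted p 0.103 (limma on normal scores without cKO replicate 3). With the replicate number as a block, which the correlations of same-numbered deviations (−0.00289, −0.0549 and 0.00906) give no reason to use, 0 receptor regions passed (smallest adjusted p 0.182) and 131 of all regions did. Over all regions the count of 45 was 1552 on normal scores, 4 when ranked by fold, 31 with entries in all 6 libraries and 2 to 20 with any 1 library left out. On normal scores it was 151 without cKO replicate 1, 309 without cKO replicate 2, 426 without WT replicate 1, 761 without WT replicate 2, 1120 without cKO replicate 3 and 1773 without WT replicate 3. At an IDR of 0.01 or less, 2 regions were on the WT list alone and 4 on the cKO list alone. The median receptor difference was −0.103 to −0.0148 with 1 library left out, 0.00855 for gene bodies plus 2 kb and 0.0273 on normal scores without WT replicate 2. Pathway promoters had 1 call on normal scores, with the block (adjusted p 0.00944) and without cKO replicate 2, each at Rgs4, 2 without WT replicate 3, at Rgs4 and Gnaq, and 0 without WT replicate 1, WT replicate 2, cKO replicate 1 or cKO replicate 3 (normal scores with libraries left out or blocked were chosen after seeing the data).

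The difference in listed intervals turned to 6.33 for all 9 genes, 2.33 for Chrm3 and 0.333 for Ednra at q 0.05 or less, and to −1.0 for Chrm2 and −0.667 for Ednrb in the 100000 best-ranked. Leaving out 1 library gave −7.33 to 0.333 for all 9 genes (0.333 without cKO replicate 3), −2.17 to 3.33 for Adra1b (−0.667 without cKO replicate 1) and −3.5 to 0.5 for Chrm3. The best score of Ednra turned to −0.000802 when ranked by fold, and that of Ednrb ran from −0.132 to 0.128 (0.081 without cKO replicate 1). Of the 30 receptor regions, these changed sign with 1 library left out: Oxtr +24.3 kb from −0.36 to 0.143 (0.0381 without cKO replicate 3), Adra1b +121.4 kb from −0.347 to 0.0161, Adra1b +5.5 kb from −0.0894 to 0.0448 (0.0328 without cKO replicate 1), Chrm3 +377.2 kb from −0.299 to 0.0753, Chrm3 +3.4 kb from −0.104 to 0.386, Ednra +39.9 kb from −0.0237 to 0.333 (−0.000364 without cKO replicate 2), Avpr1a −1.0 kb from −0.0753 to 0.0907 (−0.0508 without WT replicate 3), Adra1a +0.0 kb from −0.446 to 0.00875, Ednrb +3.7 kb from −0.157 to 0.188 (0.0911 without cKO replicate 1) and Ednrb +0.5 kb from −0.0705 to 0.178 (−0.0443 without WT replicate 3). On normal scores the sign changed at Oxtr +24.3 kb (0.0139 without WT replicate 1, 0.254 without WT replicate 3 and 0.177 without cKO replicate 3), Adra1b +121.4 kb (0.00987 without cKO replicate 2), Adra1b +5.5 kb (0.0422 without WT replicate 2 and 0.0327 without cKO replicate 1), Chrm3 +377.2 kb (0.102 without WT replicate 2), Chrm3 +3.4 kb (−0.147 without cKO replicate 1), Ednra +39.9 kb (−0.0641 without WT replicate 1), Ednrb +3.7 kb (0.0565, also with the block, and 0.0123 to 0.373 without WT replicate 2, WT replicate 3, cKO replicate 1 (0.257) or cKO replicate 3 (0.0221)), Avpr1a −1.0 kb (−0.21 without WT replicate 3 and −0.11 without cKO replicate 2), Avpr1a +0.1 kb (0.0519 without WT replicate 3), Adra1a +0.0 kb (0.111 without WT replicate 1) and Ednrb +0.5 kb (−0.2 without WT replicate 3 and −0.0645 without cKO replicate 3). The cause was not tested. Regions near the bottom of the list rest on few tags, such as 8 to 20 per library at Adra1a +1.6 kb, and intervals and tests cover the spread of 3 libraries only.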
